A study of Mus musculus with 2 samples.

Results

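The Bcl2 family sets the point at which a cell commits to apoptosis through its mitochondria. Pro-survival members such as Bcl2 itself hold the effectors Bax and Bak1 in check, BH3-only members relieve that restraint or engage the effectors directly, and active effectors open the outer mitochondrial membrane so that cytochrome c escapes and caspases are switched on. In the ovary most follicles that start to grow are lost through granulosa cell apoptosis, a process called atresia, and Bok takes its name (Bcl2-related ovarian killer) from its isolation from rat ovary.

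The 10 genes described are Bcl2, Bcl2l1 and Mcl1 (pro-survival), Bax, Bak1 and Bok (effectors), and Bad, Bid, Bcl2l11 and Bbc3 (BH3-only). They were taken by gene symbol, through their Ensembl identifiers, and were 10 of the 43346 mouse genes and 42 of the 103639 mouse transcripts quantified. Polyadenylated RNA from whole ovary of 8-week-old C57BL/6J females was sequenced in 2 libraries of 1 group, called replicate 2 and replicate 1 as in the labels, with no mutation or treatment named. The females were littermates, and the RNA had been depleted of ribosomal RNA and kept above a minimum size before stranded paired-end sequencing. Although labelled as biological replicates, both libraries cite the same donor record, so the spread and p-values describe these 2 libraries and may be technical. No control group exists, and the comparison the design allows is of replicate 2 with replicate 1.

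Replicate 2 held 34930860 gene counts, against 41124061 for replicate 1. Markers matched the labelled tissue: the granulosa cell hormone subunit Inha stood at 6279 TPM in replicate 2 and 7396 TPM in replicate 1 (TPM divides counts by transcript length and gives every library the same total), the theca cell hormone Insl3 at 585 and 688 TPM, and the egg coat gene Zp3 at 151 and 186 TPM. The germ cell marker Ddx4 was near 0, at 0.05 and 0.08 TPM. Other tissue was present too, since the oviduct gene Ovgp1 stood at 528 and 627 TPM and the fat cell gene Cfd at 2772 and 2081 TPM in replicate 2 and replicate 1. In bulk tissue, fewer cells of a type and less RNA per cell cannot be told apart. Both red cell markers and 3 of 3 fat cell markers were higher in replicate 2 by a two-sided exact binomial test on counts, which called 29.1% of all genes tested higher and 27.0% lower. The granulosa and theca lists each had 2 of 4 tested markers higher and 2 lower, and the oocyte, stroma and oviduct lists each had 1 of 3 higher and 2 lower. Those higher in replicate 2 were Zar1, Amh, Foxl2, Lhcgr, Cyp11a1, Col1a1 and Foxj1. The summed levels were 1414 TPM in replicate 2 and 763 TPM in replicate 1 for the red cell, and 3122 and 2370 TPM for the fat cell. The T cell marker Cd3e stayed below 1 TPM in both libraries. The part of this tissue makeup in the results on the family was not tested.

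The feature that unites the family is the BH3 motif, the short helix through which members bind each other. The coding bases around its core are shown because they identify the 10 genes by sequence, with the codons of the conserved leucine and aspartate in capitals. The core was sought in translated GENCODE M21 transcripts as a leucine, 3 further residues, a glycine, alanine or serine, an aspartate, and then an aspartate, glutamate or glycine. It occurred once in the annotated principal transcript of each of the 10 members, and in 8.59% of all protein-coding genes, so the pattern alone does not mark the family. Positions are on mm10, 5′ to 3′ on the strand given.
Bok (chr1:93686648-93689173, plus strand): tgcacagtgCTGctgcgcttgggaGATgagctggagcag
Bax (chr7:45465994-45466032, minus strand): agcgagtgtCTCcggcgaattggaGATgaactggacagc
Bak1 (chr17:27022528-27022566, minus strand): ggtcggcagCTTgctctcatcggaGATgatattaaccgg
Mcl1 (chr3:95659427-95659465, plus strand): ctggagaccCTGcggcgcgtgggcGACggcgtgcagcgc
Bcl2l1 (chr2:152829694-152829732, minus strand): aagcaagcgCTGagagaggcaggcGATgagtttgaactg
Bcl2 (chr1:106712572-106712610, minus strand): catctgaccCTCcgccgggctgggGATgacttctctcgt
Bad (chr19:6950783-6950821, plus strand): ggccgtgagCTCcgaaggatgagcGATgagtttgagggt
Bbc3 (chr7:16313764-16313802, plus strand): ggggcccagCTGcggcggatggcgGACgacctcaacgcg
Bcl2l11 (chr2:128147141-128147179, plus strand): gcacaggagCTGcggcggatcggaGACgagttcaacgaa
Bid (chr6:120897286-120897324, minus strand): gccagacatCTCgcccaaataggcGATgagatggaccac

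All 10 members were detected in both libraries, and the effectors carried the most RNA of the 3 roles. Bok had the highest mean level, with 271.82 TPM in replicate 2 and 206.31 TPM in replicate 1, a mean of 239 ± 46.3 (SD, n = 2). Of all protein-coding genes, 97.1% had a lower mean TPM than Bok. Mcl1 and Bax followed at means of 194 ± 129 and 130 ± 10.6 TPM (SD, n = 2). Bcl2, the founding member of the family, had the lowest level of the 10, a mean of 3.03 ± 0.792 TPM (SD, n = 2), and 45.9% of protein-coding genes lay below it.

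Among the effectors, Bok lies on chromosome 1 at 93685660 to 93695764 of mm10. The authors' deposited interval for its TPM, whose level is not stated, ran from 258 to 278 in replicate 2 and from 196 to 211 in replicate 1. Bax, which moves from the cytosol to mitochondria when activated, stood at 122.56 TPM in replicate 2 and 137.50 TPM in replicate 1 (chromosome 7, 45461697 to 45466898). Both Bax values lay below both Bok values. Bak1, the effector that resides on the mitochondrial membrane, stood at 47.50 TPM in replicate 2 and 76.34 TPM in replicate 1 (chromosome 17, 27019810 to 27029009), below Bax in both libraries. The 3 effectors summed to 441.88 TPM in replicate 2 and 420.15 TPM in replicate 1, of which Bok made up 61.5% and 49.1%.

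Among the pro-survival members, Mcl1, a short-lived protein that cells must keep making, stood at 285.24 TPM in replicate 2 and 103.40 TPM in replicate 1 (chromosome 3, 95658788 to 95663176). It was the highest of the 10 in replicate 2 and below Bok and Bax in replicate 1, and its range enclosed the values of Bok and Bax in both libraries. Bcl2l1, which encodes Bcl-xL, stood at 43.15 TPM in replicate 2 and 56.33 TPM in replicate 1 (chromosome 2, 152780668 to 152831728). Bcl2 stood at 3.59 TPM in replicate 2 and 2.47 TPM in replicate 1, from 390 and 354 counts (chromosome 1, 106538178 to 106714274). The pro-survival sum was therefore 332 TPM in replicate 2 and 162 TPM in replicate 1, and the effector sum exceeded it 1.33-fold in replicate 2 and 2.59-fold in replicate 1.

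Among the BH3-only members, Bad, which growth factor signalling holds inactive by phosphorylation, was the highest at 66.39 TPM in replicate 2 and 68.32 TPM in replicate 1 (chromosome 19, 6941861 to 6951899). Bbc3, the p53 target also called PUMA, stood at 55.00 TPM in replicate 2 and 39.84 TPM in replicate 1 (chromosome 7, 16308393 to 16318205). Bcl2l11, also called BIM, stood at 16.21 TPM in replicate 2 and 16.37 TPM in replicate 1 (chromosome 2, 128126038 to 128162547). Bid, which caspase-8 cleaves to link death receptors to mitochondria, stood at 8.89 TPM in replicate 2 and 10.11 TPM in replicate 1 (chromosome 6, 120891930 to 120916853). Bcl2l11 and Bid each differed little between the libraries, and neither overlapped a neighbour in the order. The BH3-only sum was 146 TPM in replicate 2 and 135 TPM in replicate 1.

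By mean TPM the order was Bok, Mcl1, Bax, Bad, Bak1, Bcl2l1, Bbc3, Bcl2l11, Bid and Bcl2. Of the neighbours in that order, Bok and Mcl1, Mcl1 and Bax, Bad and Bak1, Bak1 and Bcl2l1, and Bcl2l1 and Bbc3 did not differ beyond their spread, since their 2-library ranges overlapped. Within each library Bak1 was nonetheless above Bcl2l1, while the order of the other overlapping pairs turned between the libraries. The ranges of Bax and Bad, Bbc3 and Bcl2l11, Bcl2l11 and Bid, and Bid and Bcl2 did not overlap.

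A gene's TPM depends on the length the authors' quantification gave it, which is a mean over transcripts weighted by their estimated shares. Where short partial transcripts take a large share, the length shrinks and TPM rises. Counts were therefore also divided by the length of the annotated principal transcript alone, an alternative chosen after the data were seen. Bok kept the first rank with 207 TPM in replicate 2 and 166 TPM in replicate 1, and Bax moved to the second. Mcl1 followed, with 94.7 TPM in replicate 2 and 49.5 TPM in replicate 1, both below both Bax values. Bbc3 stood at 22.6 TPM in replicate 2 and 16.1 TPM in replicate 1, and Bad at 41.2 and 44.0 TPM. For Bad the principal transcript is Bad-201, of 1451 bases, which held 15.1% of Bad counts in replicate 2 and 17.3% in replicate 1. Bad-202, a complete form of 990 bases, held 73.4% and 76.3%, so the Bad level on this scale rests on the length of a minor form. On this scale the effector sum exceeded the pro-survival sum 2.65-fold in replicate 2 and 3.36-fold in replicate 1. The effector sum was the higher in both libraries on either scale, while the size of its lead moved with the length used for Mcl1.

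**Figure D1:**
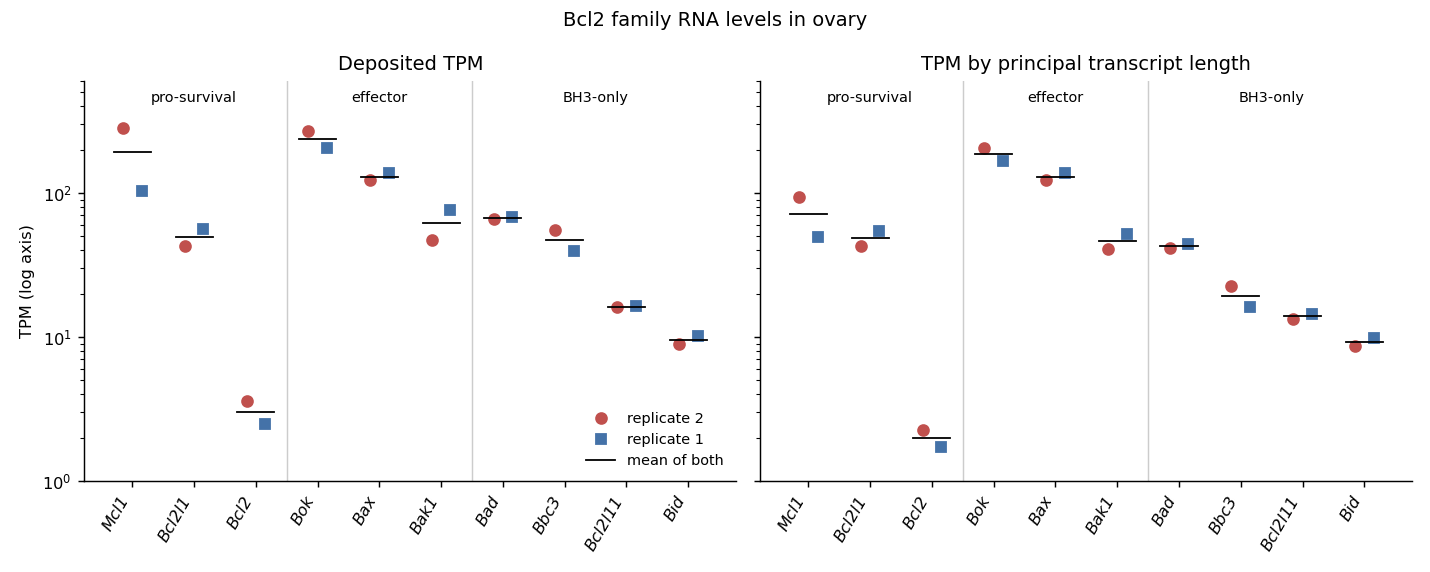
Levels of the 10 members by role, on a log axis of TPM, with replicate 2 as circles, replicate 1 as squares and their mean as a line. On the left is the deposited TPM, on the right the level from the principal transcript's length: Mcl1 averages 194 TPM on the left and 72.1 TPM on the right, while Bok leads the effectors in both.

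Between the libraries, 4 members were higher in replicate 2, 2 were lower and 4 did not pass. The test was a two-sided exact binomial test on the counts scaled by TMM (a library scaling that assumes most genes do not differ), with Benjamini-Hochberg adjustment over 15939 genes, and it sets the reads of one library against those of the other rather than conditions. Of all genes tested, 29.1% passed as higher in replicate 2 and 27.0% as lower, so 6 of 10 passing members is near that background. No member exceeded 2-fold on scaled counts, against 3.99% of all genes tested.

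Mcl1 had the largest difference, with 7630 counts in replicate 2 and 4762 counts in replicate 1, a log2 ratio of 0.98 (counting SE 0.03). Of all genes tested, 4.29% had a larger ratio in either direction. Its scaled counts were 1.97-fold higher in replicate 2, while its TPM was 2.76-fold higher. The next were Bbc3 at a log2 ratio of 0.54 (SE 0.07, adjusted p = 1.82e-13, exact binomial test), Bcl2 at 0.44 (SE 0.11, adjusted p = 1.05e-04) and Bok at 0.38 (SE 0.03, adjusted p = 6.97e-48). Bok had 6428 counts in replicate 2 and 6076 in replicate 1.

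Bak1 and Bcl2l1 were lower in replicate 2, both at a log2 ratio of -0.30 (SE 0.04, adjusted p = 4.64e-13 and 6.84e-14 by the exact binomial test). The TPM of Bak1 differed more, at 0.622-fold, than its scaled counts, at 0.815-fold. Bax (log2 ratio -0.08), Bad (-0.03), Bcl2l11 (-0.07) and Bid (-0.13) did not pass, with adjusted p = 0.0869, 0.627, 0.192 and 0.230 by the exact binomial test. The median size of the log2 ratio over all genes tested was 0.23, and 6 of 10 members lay above it.

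The scaling touched 3 of these 6 calls. The spike-ins, RNAs of known amount added by the submitters, took 0.986% of counts in replicate 2 and 0.764% in replicate 1. Scaling by their total lowered the median log2 ratio by 0.43. On that scale 1 member, Mcl1, was higher in replicate 2 at 0.54, and 7 were lower. Bok then stood at -0.05, so its direction turned, and Bcl2 at 0.004 and Bbc3 at 0.11 did not pass. Bak1 and Bcl2l1 remained lower, both at -0.73.

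**Figure D2:**
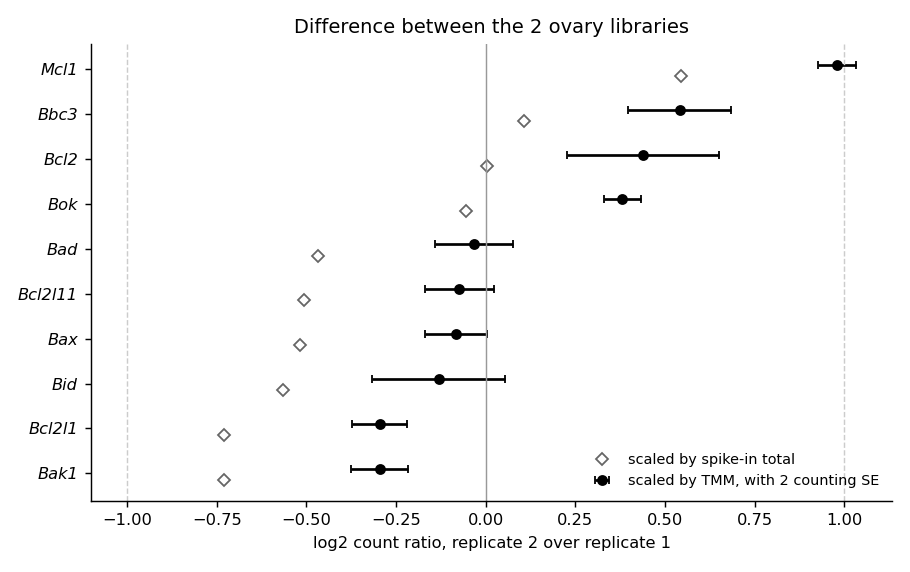
Log2 count ratio of replicate 2 over replicate 1 for each member. Filled points are scaled by TMM with bars of 2 counting SE, open diamonds by the spike-in total, and dashed lines mark 2-fold: Mcl1 lies furthest right on both scales, and every diamond lies to the left of its filled point.

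The transcript tables split each gene's TPM among its annotated forms. Of the 42 member transcripts, 18 had a mean share of at least 10% and 6 were at 0 in both libraries. Bax was listed with 1 transcript, Bax-201. Bid-201 held 97.10% of Bid TPM in replicate 2 and 95.02% in replicate 1, and Bcl2l1-201 held 95.45% and 90.61% of Bcl2l1 TPM. The 24 other transcripts had mean shares under 10%. In GENCODE M21, 10 of the 42 carry a tag for an incomplete end, meaning that the annotation itself knows only part of them.

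Such partial forms mattered for Bok and Bbc3. Bok-201, the complete form, held 67.26% of Bok TPM in replicate 2 and 73.42% in replicate 1. Bok-203, a form of 547 bases with another first exon and no annotated 3′ end, held 32.34% and 26.16%, yet only 11.5% and 8.39% of Bok counts. Both forms carry the BH3 core. Bbc3-202, 485 bases long and also without a 3′ end, held 70.39% of Bbc3 TPM in replicate 2 and 70.33% in replicate 1. Bbc3-201, the complete form and the one of the 3 with an annotated BH3 core, held 28.30% and 28.62% of TPM and 68.9% and 70.7% of counts. The annotation of Bbc3-202 stops at base 16313738 of chromosome 7, before the core begins at 16313764. Whether RNA of that form carries the core therefore cannot be told.

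Mcl1 showed the largest shift of shares between the libraries among forms present in M21. Mcl1-202 held 83.43% of Mcl1 TPM in replicate 2 and 64.68% in replicate 1, and Mcl1-201 the rest. Mcl1-202 is 858 bases long, lies wholly within the 3485 bases of Mcl1-201, and leaves out a coding stretch of exon 1. It is tagged as having a non-canonical splice site, one whose ends do not follow the usual rule. The mean transcript length of Mcl1 was thereby 1293 bases in replicate 2 and 1786 bases in replicate 1. The TPM of Mcl1-201 alone was 47.28 in replicate 2 and 36.52 in replicate 1, while that of Mcl1-202 was 237.96 and 66.88. The stretch is shown in capitals, with 9 bases of Mcl1-201 on each side, because it is the one internal difference between the forms. Its 138 bases are 85.5% G or C, and without it the coding sequence has 285 codons in place of 331.
Mcl1 stretch left out of Mcl1-202 (chr3:95658909-95659046, plus strand): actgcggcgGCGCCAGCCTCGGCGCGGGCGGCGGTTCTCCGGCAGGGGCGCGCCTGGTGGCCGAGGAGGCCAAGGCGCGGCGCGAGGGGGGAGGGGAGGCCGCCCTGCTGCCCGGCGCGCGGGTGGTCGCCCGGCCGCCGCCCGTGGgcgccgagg

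Bak1 TPM was spread over 3 forms. Bak1-201 held 48.75% in replicate 2 and 35.24% in replicate 1, Bak1-202 held 45.75% and 36.84%, and a short transcript of 416 bases that M21 no longer lists held 5.50% and 27.25%. The last of these rested on 13.6 counts in replicate 2 and 116 counts in replicate 1. Bak1-202 encodes the full effector. Bak1-201 is annotated as a target of nonsense-mediated decay and holds an additional exon of 20 bases, known from the neuronal form of Bak1. That exon shifts the reading frame and ends it after 151 codons in place of 209. The forms differ at their ends as well: Bak1-201, of 1974 bases, starts at 27028578 and Bak1-202, of 2387 bases, at 27029009. The BH3 core, from coding base 226, lies before the exon, which starts at coding base 345, so both forms hold it. The exon is shown in capitals with 21 bases of its neighbours on each side.
Bak1 short exon (chr17:27021663-27021682, minus strand): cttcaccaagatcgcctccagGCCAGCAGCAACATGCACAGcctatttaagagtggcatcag

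Bcl2 was divided between Bcl2-202, a form of a single exon, and Bcl2-201. Bcl2-202 held 58.97% of Bcl2 TPM in replicate 2 and 48.48% in replicate 1. By share of counts Bcl2-202 held 35.2% in replicate 2 and 26.1% in replicate 1, so Bcl2-201 led in both. The coding sequence of Bcl2-202 ends after 199 codons in place of 236 and so lacks the membrane anchor at the end of the protein. The bases below give its own end, in capitals, after 9 shared bases and before the stop codon.
Bcl2-202 coding end (chr1:106712284-106712304, minus strand): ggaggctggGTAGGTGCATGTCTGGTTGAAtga

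Of the other BH3-only genes, Bad-202 held 72.42% of Bad TPM in replicate 2 and 78.87% in replicate 1, and Bad-201 held 9.37% and 11.12%. Bcl2l11-205, the annotated principal form, held 74.75% of Bcl2l11 TPM in replicate 2 and 80.93% in replicate 1, and the processed transcript Bcl2l11-206, which has no coding sequence, held 17.40% and 9.58%. Forms with a BH3 core made up 82.2% of Bcl2l11 TPM in replicate 2 and 89.4% in replicate 1.

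**Figure D3:**
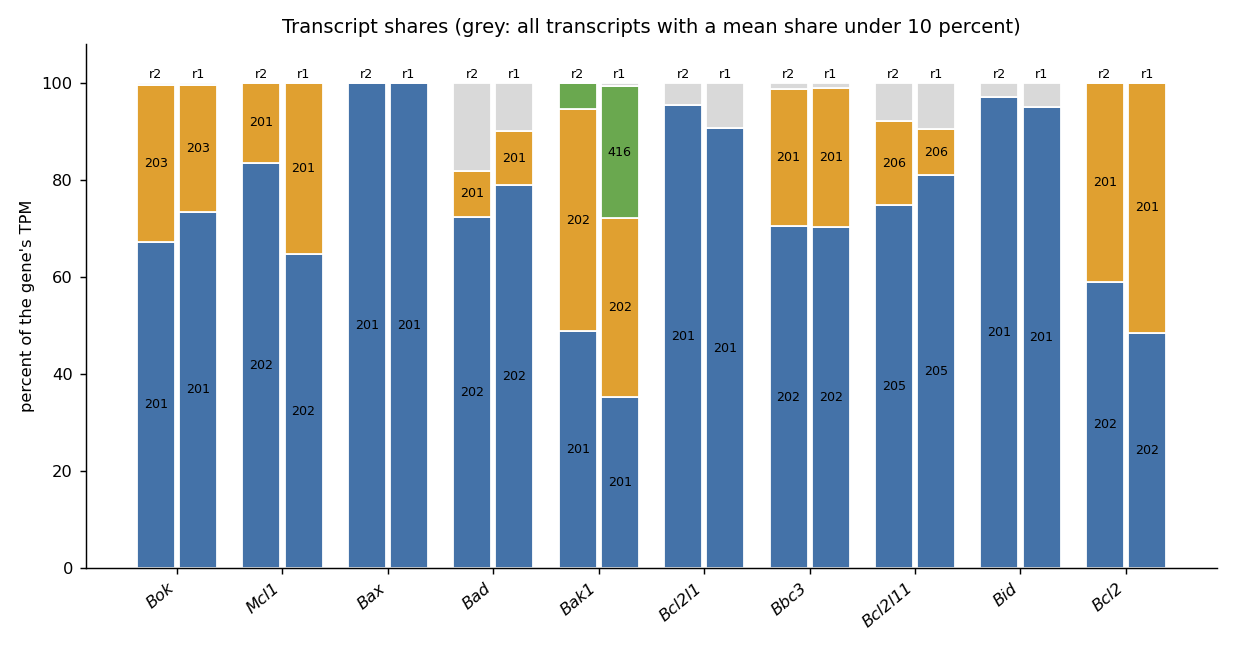
Share of each gene's TPM held by its transcripts, as stacked bars in percent, with replicate 2 (r2) left of replicate 1 (r1) and the transcript's number in each block. Blue, orange and green are the forms with a mean share of at least 10% and grey is the rest; the Mcl1 and Bak1 bars differ most between the libraries, and the Bax bars hold 1 form.

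Spliced reads give a view of the same forms that does not pass through the estimate of shares. The authors' deposited junction table holds 438382 junctions on the older build mm9, with 1 read count for each, given for the series as a whole and not per library. Members were recognised in it by the lengths of their annotated introns and the spacing between them, with no coordinate converted, and 9 of 10 were found. Bcl2 was not accepted, since its single annotated intron has no spacing to match. Mcl1 and Bcl2l1 rested on 2 matched introns each, and the other 7 on 4 to 6.

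For Bok, the 4 introns of Bok-201 had 411, 2062, 1549 and 1675 reads from 5′ to 3′. The first of these belongs to Bok-201 alone among the quantified forms, and the 3 that follow together held most of the reads. The intron of 2487 bases, with 2062 reads, is the one that the Bok BH3 stretch shown above spans. For Bax, the 5 introns of Bax-201 had 116, 392, 610, 1259 and 908 reads, so the count over the first intron was likewise the lowest of the 5. Another intron, of 1436 bases and particular to Bax-205, a coding form not among the quantified ones, had 36.

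For Bak1, the splice that skips the short exon had 582 reads, and neither of the 2 splices that would include it was listed. The other introns of Bak1-202 had 235, 428, 426 and 509 reads. The transcript table nonetheless gave Bak1-201, the form with the exon, 46.1% of Bak1 counts in replicate 2 and 42.0% in replicate 1. Bak1-201 and Bak1-202 also differ at their ends, and which difference these shares rest on was not tested. For Mcl1, the introns shared by both forms had 617 and 23 reads, and the splice of 138 bases that defines Mcl1-202 was not listed. The transcript table gave Mcl1-202 50.0% of Mcl1 counts in replicate 2 and 26.2% in replicate 1. No source used here gives the aligner, its smallest accepted overhang or its filters, and whether it could place reads over these splices was not tested.

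For Bbc3, the intron particular to Bbc3-201 had 179 reads and the intron particular to Bbc3-202 had 21. A further first intron, of Bbc3-204, a form not among the quantified ones, had 61. For Bad, the first intron of Bad-202 had 481 reads and the one shared by Bad-201 and Bad-203 had 96. The Bcl2l1 intron between its main coding exons, 47144 bases long, had 423 reads, and the other intron of Bcl2l1-201, of 1500 bases, was not listed. The introns of Bid-201 had 30 to 143 reads and those of Bcl2l11-205 had 57 to 69.

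**Figure D4:**
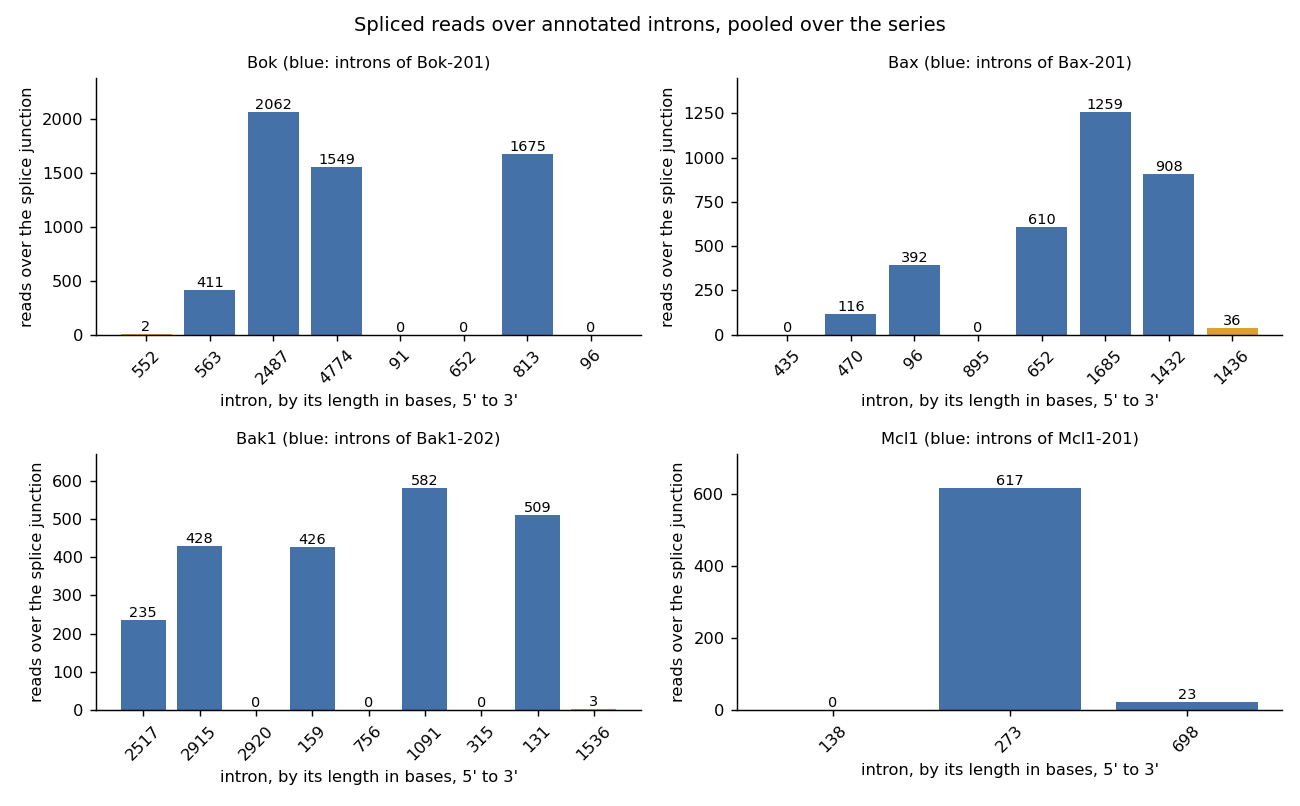
Reads over each annotated intron of Bok, Bax, Bak1 and Mcl1, given for the series as a whole, with introns in 5′ to 3′ order and named by their length in bases. Blue bars are introns of the principal transcript and orange bars are others; the Bak1 introns of 756 and 315 bases, which flank the short exon, and the Mcl1 intron of 138 bases stand at 0.

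Of 15 further family members, 8 reached 1 TPM in both libraries. The highest were Bcl2l12 at a mean of 43.4 TPM, Bnip3 at 37.2, the BH3-only gene Bmf at 35.8 and the pro-survival gene Bcl2l2 (Bcl-w) at 34.6 TPM. Bcl2l10, a relative known from mouse ovary and oocytes, stood at 20.77 TPM in replicate 2 and 21.92 TPM in replicate 1. Bnip3l followed at a mean of 18.6 TPM, the BH3-only gene Bik at 13.0 and Bcl2l13 at 12.7. The pro-survival Bcl2a1 genes were low, with Bcl2a1d at 0.995, Bcl2a1b at 0.915 and Bcl2a1a at 0.250 TPM, and their split is uncertain because they are near-identical copies. Bcl2l15 (0.825), the p53 target Pmaip1 or NOXA (0.415), Hrk (0.150) and Bcl2l14 (0.060) also had mean TPM under 1. Of 9 tested, Bnip3l (log2 ratio 0.54) and Bmf (0.34) were higher in replicate 2 and Bnip3 (-0.18) was lower, by the exact binomial test. The TPM of Bnip3 went the other way, at 38.96 in replicate 2 and 35.46 in replicate 1. The list's median log2 ratio was -0.01, against -0.01 over all genes tested.

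A further list held genes of mitochondrial permeabilisation and of the apoptosome, a complex that activates caspases. In it Endog, a mitochondrial nuclease, stood at a mean of 167 TPM and the membrane channel Vdac2 at 127. Diablo, which frees caspases from their inhibitors, stood at 93.8. Of 12 such genes tested, 2 were higher in replicate 2 and 5 lower, against 29.1% and 27.0% of all genes tested, with a median log2 ratio of -0.14, against -0.01 over all genes tested. Among caspases and their inhibitors, the executioner Casp6 stood at 113 TPM, the inhibitor Birc6 at 93.1 and Casp2 at 36.0. Of 10 tested, 0 were higher in replicate 2 and 6 were lower, against the same 29.1% and 27.0% of all genes tested, and their median log2 ratio was -0.21, against -0.01.

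Of the death receptor genes, Tnfrsf1a, the main receptor of tumour necrosis factor, stood at 178 TPM, the caspase-8 regulator Cflar at 37.2 and the adaptor Tradd at 25.6. Of 8 tested, 2 were higher in replicate 2 and 1 lower, with a median log2 ratio of -0.07. Of the upstream regulators, Vcp stood at a mean of 253 TPM, the survival kinase Akt1, which phosphorylates Bad, at 236, and the stress transcription factor Atf4 at 181. The Vcp values were 333.84 TPM in replicate 2 and 172.94 TPM in replicate 1, while its log2 count ratio was 0.06. Of 20 tested, 7 were higher in replicate 2 and 9 lower, with a median log2 ratio of -0.06. These counts stand beside 29.1% higher and 27.0% lower among all genes tested. In these lists no gene with a mean count of at least 100 differed over 2-fold on scaled counts.

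For 3 members a gene with counts lies on the opposite strand of part of the locus. Gpr137, beside Bad, stood at 102.26 TPM in replicate 2 and 104.09 TPM in replicate 1, Ggnbp1, beside Bak1, at 29.2 and 41.9 TPM, and Bcl2l13, beside Bid, at 12.8 and 12.5 TPM. The libraries are stranded per the labels, but no source used here says whether the counting used strand. If it did not, reads from bases that lie in exons of both genes of a pair could not be told apart. The overlap was taken over whole gene spans, and that of exons was not computed. At Bcl2 the opposite-strand gene D630008O14Rik had 0 counts in both libraries, and Gm37053, which overlaps it on the same strand, stood at 0.71 TPM in replicate 2 and 0.45 TPM in replicate 1.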

How the data were processed

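Both ovary libraries came with tables on mm10 whose accompanying notes name the annotation GENCODE M4. Neither aligner nor quantifier is named in any source used here. Expected counts, as the authors deposited them, estimate the read pairs of each gene or transcript, and the deposited TPM divides these by effective length. The authors also deposited FPKM and the percent of a gene's TPM held by each transcript. A junction table on mm9, also deposited, has 1 read count per junction, and in all 438382 junctions it equalled the sum of both numbers in the junction name, which no source ties to the replicates.

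Names and structures came from GENCODE M21, matched to 42462 of 43346 gene identifiers after their version was removed. Of the 42 member transcripts, 41 were in M21 and 37 had the same length there. Sequences were copied from the M21 transcripts on mm10 (GRCm38). The members and lists were chosen with earlier results of these data known. All members, all further family genes, the 3 highest of each other list, genes over 2-fold with a mean count no lower than 100, and transcripts with a mean share of at least 10% were named; marker lists are given by examples and sums.

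Expected counts were rounded to whole numbers, and edgeR 4.0.16 under R 4.3.3 gave TMM scaling over genes whose mean count reached 20. Log2 ratios carried a prior count of 1. Since a single library a side leaves edgeR's quasi-likelihood test with no residual degrees of freedom, its place was taken by an exact binomial test, two-sided and with Benjamini-Hochberg adjustment at 0.05. It was tested on simulated counts that carried counting error alone. The simulation held no further spread between libraries, so it does not show how the test behaves on these 2. DESeq2 1.42.0 gave alternative size factors. Python 3.11.15, numpy 2.4.6, pandas 2.3.3, scipy 1.17.1 and matplotlib 3.10.9 served the rest. A gene with 0 counts allows up to 3, which is 0.0859 CPM in replicate 2 and 0.0730 in replicate 1. Standard errors and such limits reflect counting error alone, as there are no molecular identifiers. Spike-ins and other non-gene rows were left out of library sizes. Contigs were not used here.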

Additional observations from a re-analysis of the deposited data

How the results depend on the processing

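With 2 libraries, no spread within a side could be estimated, and the difference between animals and between library preparations cannot be told apart. No paired analysis was possible because the libraries form 1 group. Under DESeq2 size factors, no count filter, a mean count of at least 100 and posterior mean counts, 4 members were higher in replicate 2 and 2 lower. Bcl2 was the one called member that did not pass after Bonferroni adjustment. Scaling by total gene count made 4 members lower. Scaling by the spike-in total made 1 member higher and 7 lower, and turned Bok to -0.054. Over all genes, spike-in scaling gave 1142 higher, 11431 lower and 1207 over 2-fold, against 4646, 4301 and 636. Bonferroni adjustment gave 4763 genes in all, 2782 higher and 1981 lower, against 8947. Genes over 2-fold numbered 3346 with no filter and 298 at a mean count of at least 100. All 10 members kept their rank of level under posterior mean TPM, FPKM and rescaling to nuclear protein-coding genes, 6 did by principal transcript length, and 5 to 6 did with either library left out. By principal transcript length, chosen after the data were seen, the sums were 122.8 TPM (pro-survival), 362.7 (effector) and 85.2 (BH3-only), against 247, 431 and 141. The BH3-only sum on that scale takes Bad at the length of Bad-201, a form with a minor share of Bad counts. Rescaling gave 487.7 for the effectors and 159.0 for the BH3-only genes.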
